A study of Homo sapiens with 6 samples.

Results

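The sensors and kinases that detect unfolded proteins and other stresses, and the factors they switch on, were followed in NCI-H660 cells given either pyrvinium pamoate (PP) or, as the control, PBS. They were chosen by symbol, with earlier results of these data known, and comprise 10 of the 17177 genes in the expression table. They include *ERN1* and *XBP1*, the eIF2α kinase genes *EIF2AK1*, *EIF2AK2*, *EIF2AK3* and *EIF2AK4*, and *ATF6* and *ATF6B*. The others are the site 1 and site 2 protease genes *MBTPS1* and *MBTPS2*. NCI-H660 is an established cell line from neuroendocrine prostate cancer (NEPC), labelled as wild type (WT) in both groups, and PP is an anthelmintic used in the study as an inhibitor of the RNA-binding protein ELAVL3. Each group had 3 libraries, all taken on day 3. By these labels the groups differed in treatment alone, and all libraries come from a single cell line. Whether they also differed in batch or in the solvent of PP was not examined. The labels do not say whether the libraries came from separate cultures, although the legends speak of independent samples, so the p-values measure the spread between these libraries.

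The endoplasmic reticulum folds secreted and membrane proteins, and its unfolded protein response is started by IRE1 (encoded by *ERN1*), PERK (encoded by *EIF2AK3*) and ATF6. IRE1 is a kinase and RNase that cuts the *XBP1* mRNA, which after religation encodes the transcription factor XBP1s. PERK phosphorylates the translation factor eIF2α, as do HRI (*EIF2AK1*, heme and mitochondrial stress), PKR (*EIF2AK2*, double-stranded RNA) and GCN2 (*EIF2AK4*, amino acid shortage), and together they start the integrated stress response (ISR). ATF6 and its relative ATF6B leave the endoplasmic reticulum under stress and are cut in the Golgi by the site 1 and site 2 proteases, which also release the SREBP factors of sterol synthesis. These proteins are regulated largely after translation, and the data described here are mRNA levels alone. A gene-level value does not separate spliced from unspliced *XBP1*, and phosphorylation and cleavage were not measured.

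Transcripts of the 3 endoplasmic reticulum sensors were all higher with PP, whereas those of their relatives differed little or were lower. *ERN1* was 5.40-fold, *XBP1* 3.62-fold, *EIF2AK3* 2.11-fold and *ATF6* 1.78-fold higher. *MBTPS2* was 38.5% and *EIF2AK1* 8.43% higher, while *ATF6B* fell by 26.2%, *MBTPS1* fell by 18.4% and *EIF2AK2* fell by 13.7%. *EIF2AK4* did not pass the test.

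Promoter sequences of the members were searched for known stress and interferon elements near their start sites. RefSeq promoters (GRCh38.p14, from 250 bases before to 50 bases after the start) were matched by symbol for 9 of the 10 members, with 2 entries for *XBP1*. *EIF2AK1* was not matched. The windows were searched on both strands for the endoplasmic reticulum stress element (ERSE: CCAAT, any 9 bases, CCACG), which ATF6 is known to bind together with the CCAAT-binding factor NF-Y. They were also searched for ERSE-II (ATTGG, any 1 base, CCACG), the XBP1s and ATF6 core TGACGTGG, the C/EBP-ATF core TGATGCAA used by ATF4, and an interferon element (GAAA, any 2 bases, GAAA). Of 35116 promoters, 0.0769% held ERSE, 0.0541% ERSE-II, 0.729% TGACGTGG, 0.866% TGATGCAA and 3.57% the interferon element. Among the members, *XBP1* held an ERSE from position -52 to -34 counted from its start (base 0), and *EIF2AK2* held an interferon element from -6 to 3. None of these letters was found in the other windows, which says only that the letters are not in these 300 bases.

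The promoters of the 3 members with the highest fold changes and of *EIF2AK2* are given 5′ to 3′ on the strand of the gene, with the motif letters in capitals. The windows lie at chr22:28800520-28800819 (*XBP1*), chr17:64130095-64130394 (*ERN1*), chr2:88627415-88627714 (*EIF2AK3*) and chr2:37156931-37157230 (*EIF2AK2*), all on the minus strand. The RefSeq start used for *EIF2AK3* lies inside the outer limits of the gene given later.
XBP1: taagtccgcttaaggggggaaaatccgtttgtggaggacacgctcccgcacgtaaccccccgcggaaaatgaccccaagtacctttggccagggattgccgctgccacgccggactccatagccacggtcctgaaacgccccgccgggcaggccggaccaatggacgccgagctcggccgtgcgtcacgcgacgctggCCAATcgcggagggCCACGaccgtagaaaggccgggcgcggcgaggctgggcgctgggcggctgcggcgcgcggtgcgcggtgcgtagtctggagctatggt
ERN1: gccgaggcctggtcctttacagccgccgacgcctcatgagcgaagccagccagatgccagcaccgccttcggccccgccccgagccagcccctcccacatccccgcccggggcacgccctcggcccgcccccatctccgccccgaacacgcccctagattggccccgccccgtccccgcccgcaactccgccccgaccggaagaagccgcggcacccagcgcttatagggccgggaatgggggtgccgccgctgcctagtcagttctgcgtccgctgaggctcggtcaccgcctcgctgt
EIF2AK3: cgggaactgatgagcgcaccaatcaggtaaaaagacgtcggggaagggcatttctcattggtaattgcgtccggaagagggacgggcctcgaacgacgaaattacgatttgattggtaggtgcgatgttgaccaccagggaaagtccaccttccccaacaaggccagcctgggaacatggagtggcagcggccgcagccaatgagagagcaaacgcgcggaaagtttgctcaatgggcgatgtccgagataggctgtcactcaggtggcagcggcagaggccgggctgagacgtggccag
EIF2AK2: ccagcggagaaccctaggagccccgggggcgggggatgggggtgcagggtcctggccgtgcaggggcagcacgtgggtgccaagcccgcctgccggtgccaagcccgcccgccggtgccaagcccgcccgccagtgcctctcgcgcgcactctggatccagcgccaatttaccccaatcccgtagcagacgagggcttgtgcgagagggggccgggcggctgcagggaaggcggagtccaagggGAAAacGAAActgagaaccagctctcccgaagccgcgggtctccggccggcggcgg

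The ERSE of *XBP1* is set beside those of 6 other tested genes, read on the strand that carries CCAAT first, because they belong to endoplasmic reticulum genes with different values under PP, and they were chosen after those values were seen. They lie at chr22:28800603-28800621 (*XBP1*), chr9:125241391-125241409 (*HSPA5*, the chaperone BiP), chr3:150546710-150546728 (*SERP1*, a translocon protein, in a window shared with *EIF2A*), chr12:108515123-108515141 (*FICD*, which modifies BiP), chr5:179698778-179698796 (*CANX*, the chaperone calnexin), chr22:49918554-49918572 (*CRELD2*, in a window shared with *ALG12*) and chr19:12938384-12938402 (*CALR*, the chaperone calreticulin).
XBP1: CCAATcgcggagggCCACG
HSPA5: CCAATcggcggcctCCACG
SERP1: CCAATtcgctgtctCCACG
FICD: CCAATgggagtggcCCACG
CANX: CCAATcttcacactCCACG
CRELD2: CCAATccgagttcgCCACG
CALR: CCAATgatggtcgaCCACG

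The capital letters are the same in all by construction of the search, and the 9 bases between them differ. The log2 fold changes of these genes were 1.83 for *XBP1*, 1.68 for *HSPA5*, 0.86 for *SERP1*, 0.85 for *FICD*, 0.55 for *CANX* and -0.37 for *CALR*, all past the test, and -0.11 for *CRELD2*, which did not pass it (adjusted p = 0.140 from limma). ERSE letters were found at 25 genes, of which 14 were tested. Of these, 10 were higher, 1 was lower and 3 did not pass the test, with a median log2 fold change of 0.47 beside 0.02 over all genes tested. Over all genes tested 38.1% were higher and 34.4% lower, and no test was made of this group.

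Levels are given as FPKM, the number of fragments per kilobase of transcript corrected for the sequencing depth of each library. Comparisons of level between genes, such as orders, shares and ratios, rest on the gene lengths used for FPKM, which were not examined. Counts recovered from the FPKM steps summed to between 29064154 and 32481049 per library. The linear model of limma was fitted on log2(FPKM + 1) to 11726 genes whose FPKM averaged 1 or more over the 6 libraries, which included all 10 members. P values were adjusted over all of these genes by the Benjamini-Hochberg method, and a gene was called at an adjusted p under 0.05. Much of the transcriptome differed between the groups: 72.5% of tested genes were called, 38.1% higher and 34.4% lower, and in 75% the PP and PBS libraries did not overlap. Against these backgrounds 9 of 10 members were called, 6 higher and 3 lower, and 9 did not overlap, so being called says little about a member and the size of its difference carries more. At the stricter cutoff named in the methods (P under 0.001, with a log2 fold change of over 1 in size), 2.24% of tested genes were higher and 2.93% lower. The members *ERN1*, *XBP1* and *EIF2AK3* were past it on the higher side and none of the 10 on the lower side. The members and the gene lists below were chosen with earlier results of these data known. Setting them beside all genes is therefore description and no test.

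The identity of the cells was examined with marker genes. The 7 neuroendocrine markers *CHGA*, *CHGB*, *SYP*, *NCAM1*, *ENO2*, *INSM1* and *SCG2* all had a mean of at least 1 FPKM. Their summed FPKM was 213 to 224 with PBS and 180.4 to 194 with PP, and 2 of them were called higher, 4 lower and 1 did not pass the test. The luminal marker *TMPRSS2* had 1.02 ± 0.252 FPKM with PBS and 0.459 ± 0.134 FPKM with PP (SD, n = 3). The immune markers summed to 1.37 to 1.56 and 1.31 to 1.78 FPKM, nearly all of it *CD14*, and *PTPRC* reached at most 0.0204. The stromal and endothelial markers summed to 4.88 to 5.11 and 4.90 to 5.48 FPKM. The part of the lower neuroendocrine level in the results was not tested. In bulk RNA a smaller share of cells with a transcript and less of it per cell cannot be told apart.

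*ERN1* was the lowest of the 10 members with PBS and rose to rank 4 with PP. The gene lies on chromosome 17 from 64039142 to 64130144 (GRCh38.p14). It had 5.12, 5.09 and 5.23 FPKM in PBS replicates 1, 2 and 3, and 28.8, 27.7 and 26.9 FPKM in PP replicates 1, 2 and 3. The 3 PP libraries lay far above all PBS libraries, and the libraries of each group were close together. The mean rose from 5.15 ± 0.0771 to 27.8 ± 0.953 FPKM (SD, n = 3), and the log2 fold change was 2.23 (standard error 0.05, 95% interval 2.13 to 2.33, adjusted p = 1.27e-10 from limma). This placed *ERN1* at rank 18 of the 11726 genes tested, counted from the highest log2 fold change. It was covered by 1625 to 1782 counts in the PBS libraries and by 9110 to 9642 in the PP libraries. The tested genes with the most similar profile, by Euclidean distance of centred log2 values over the 6 libraries, were *ANXA1* (distance 0.08) and *LURAP1L* (0.12).

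*XBP1*, the substrate of IRE1, was the third highest member with PBS and the highest with PP. It lies on chromosome 22 from 28794560 to 28800569. Its FPKM was 43.6, 42.3 and 40.5 in the PBS libraries, and 154, 150.0 and 154 in the PP libraries. The groups were widely separated and the PP libraries were almost equal. The mean rose from 42.2 ± 1.54 to 153 ± 2.34 FPKM (SD, n = 3), with a log2 fold change of 1.83 (standard error 0.04, adjusted p = 1.27e-10 from limma) and rank 42. Because *ERN1* rose more than its substrate, the ratio of *XBP1* to *ERN1* fell from 8.19 ± 0.401 to 5.50 ± 0.192 (SD, n = 3). *HERPUD1* (distance 0.10), a gene of endoplasmic reticulum-associated degradation, had the most similar profile.

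Partners of IRE1 mostly differed little, and most genes listed as targets of XBP1s were higher. Of 12 genes for IRE1 partners and *XBP1* mRNA ligation, 11 were tested, 5 were higher, 1 was lower and 5 did not pass the test (median log2 fold change 0.10, against 0.02 over all genes tested). *DNAJB9*, an endoplasmic reticulum co-chaperone that holds IRE1 inactive, rose from 4.92 ± 0.803 to 23.9 ± 1.43 FPKM (SD, n = 3), a log2 fold change of 2.08. *SEL1L*, which with the ubiquitin ligase *SYVN1* degrades IRE1 and other proteins, had a log2 fold change of 1.26, and *SYVN1* of 0.29. The adaptor *TRAF2* differed by 0.19, and *RTCB*, the ligase that joins the cut *XBP1* mRNA, was lower by a log2 fold change of -0.26. Of the 12 XBP1s targets, 11 were higher, 0 were lower and 1 did not pass the test, with a median log2 fold change of 0.71. Both lists stand beside 38.1% of all tested genes called higher and 34.4% called lower, and neither was tested as a group. They are not separate readouts, since *DNAJB9* is in both and *SEL1L* is also counted among the ATF6 targets. XBP1s itself was not measured. *DNAJB9*, also in this list, and *SEC24D*, a coat protein of secretory vesicles (7.13 to 24.5 FPKM, log2 fold change 1.65), were the highest called targets, and *SEC31A* (0.20) and the translocon gene *SSR1* (0.16) the lowest.

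The mRNAs known as substrates of regulated IRE1-dependent decay were mostly lower. Of 8 genes, 5 passed the filter, and 4 of them were lower and 1 higher (median log2 fold change -0.26). *BLOC1S1*, the substrate most often used to follow this decay, fell from 139 ± 6.24 to 77.2 ± 7.61 FPKM (SD, n = 3), a log2 fold change of -0.84. The Golgi protein gene *TGOLN2* had a log2 fold change of -0.36 and the lysosomal gene *HGSNAT* of -0.20. *PER1*, a clock gene, was higher at 0.47. With 34.4% of all tested genes called lower, these counts describe few genes, and no test of the list was made.

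**Figure D1:**
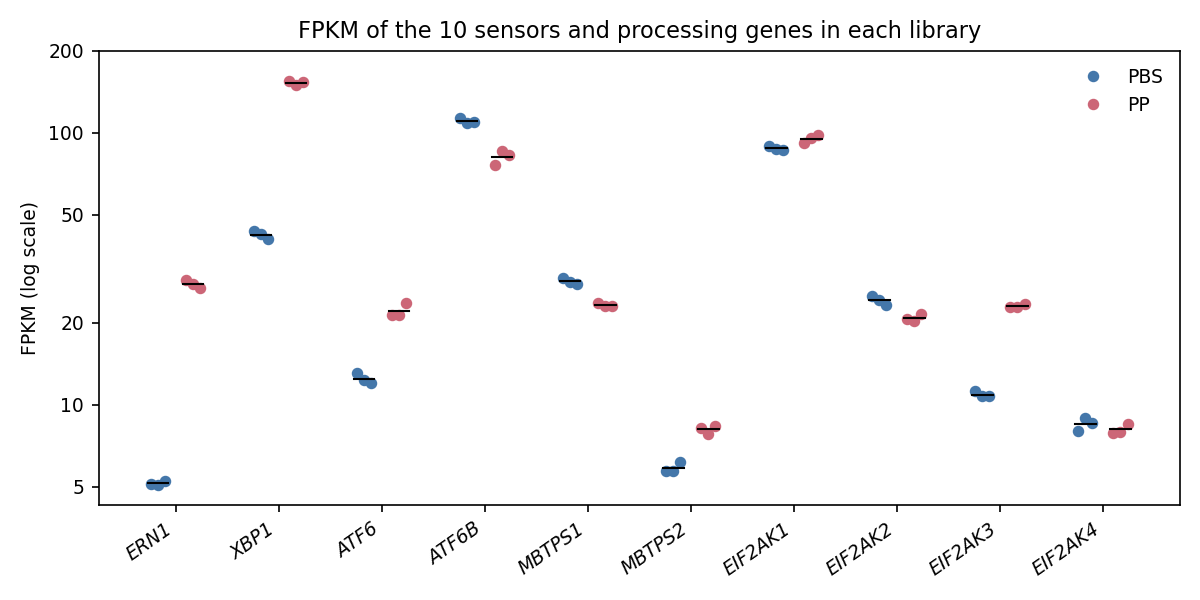
FPKM (y axis, log scale) of each of the 10 genes in each library, with PBS in blue, PP in red, 3 points per group and a black line at the group mean. *ERN1* and *XBP1* show the widest separation between the groups, and the points of *EIF2AK4* overlap.

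The eIF2α kinases differed unequally, and *EIF2AK3* had the highest fold change of the 4. *EIF2AK3*, which encodes the endoplasmic reticulum kinase PERK, lies on chromosome 2 from 88556741 to 88628145. It had 11.2, 10.7 and 10.7 FPKM in the PBS libraries, and 22.8, 22.8 and 23.4 FPKM in the PP libraries. Every PP library stood at about the same level, well above the PBS libraries. The mean rose from 10.9 ± 0.302 to 23.0 ± 0.336 FPKM (SD, n = 3), with a log2 fold change of 1.01 (standard error 0.04, 95% interval 0.92 to 1.11, adjusted p = 1.24e-08 from limma) and rank 256. The log2 fold change was close to the cutoff of 1 and fell below it, at 0.99, when libraries were scaled by median-ratio size factors. *LMO4* (distance 0.03) and *TENT5A* (0.06) had the most similar profiles.

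*EIF2AK1*, which encodes HRI, was the most abundant of the 4 kinases in every library and differed little. It lies on chromosome 7 from 6022247 to 6059175. Its FPKM was 89.3, 86.7 and 86.5 in the PBS libraries and 91.4, 95.6 and 97.7 in the PP libraries. The groups did not overlap, but PBS replicate 1 and PP replicate 1 were only about as far apart as libraries of the same group. The mean was 87.5 ± 1.59 with PBS and 94.9 ± 3.18 with PP (SD, n = 3), and the log2 fold change was 0.12 (standard error 0.04, 95% interval 0.04 to 0.19, adjusted p = 0.0143 from limma). Without PBS replicate 2 the log2 fold change was 0.11 (adjusted p = 0.0531 from limma) and without PBS replicate 3 it was 0.11 (adjusted p = 0.0517), so the call rests on these libraries. Exons of *EIF2AK1* overlap those of *AIMP2* on the opposite strand, and *AIMP2* rose from 45.7 ± 1.96 to 93.7 ± 2.68 FPKM (SD, n = 3). The library kit keeps strand but the strand setting of the counting is not stated, so the part of *AIMP2* in the *EIF2AK1* value was not tested. *RAB14* (distance 0.03) and *TTC17* (0.03) had the most similar profiles.

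*EIF2AK2*, which encodes PKR and is known as an interferon-induced gene, was lower with PP. It lies on chromosome 2 from 37099210 to 37156980. It had 25.1, 24.3 and 23.2 FPKM in the PBS libraries, and 20.7, 20.4 and 21.6 FPKM in the PP libraries. The groups were separate, with a gap about as wide as the spread within a group. The mean fell from 24.2 ± 0.933 to 20.9 ± 0.626 FPKM (SD, n = 3), a log2 fold change of -0.20 (standard error 0.04, adjusted p = 0.00187 from limma). Its exons overlap those of *GPATCH11* on the opposite strand, which rose from 5.58 ± 0.365 to 9.13 ± 0.152 FPKM, in the other direction. *TTC21B* and *HPRT1* had the most similar profiles (distance 0.04 for each).

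Other interferon-stimulated genes differed in both directions. Of 15 genes, 13 were tested, 5 were higher, 7 were lower and 1 did not pass the test (median log2 fold change -0.29). Over all tested genes 38.1% were higher and 34.4% lower. The 5 of 13 higher genes are thus at the background, and the 7 of 13 lower genes are above it. No test of the list was made. *IFI6*, a mitochondrial interferon-induced protein, was lowest at -1.41, followed by *DDX58* (*RIGI*, a sensor of viral RNA) at -0.95. The transcription factor *IRF1* was higher at 0.93 and the RNA sensor *IFIH1* at 0.48. *EIF2AK2* thus differed by less than these 4 genes.

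*EIF2AK4*, which encodes the amino acid sensor GCN2, was the only member whose groups overlapped. It lies on chromosome 15 from 39934115 to 40035591. Its FPKM was 8.03, 8.97 and 8.55 in the PBS libraries and 7.87, 7.97 and 8.52 in the PP libraries. PP replicate 3 lay within the range of the PBS libraries. The mean was 8.51 ± 0.470 with PBS and 8.12 ± 0.347 with PP (SD, n = 3), with a log2 fold change of -0.06 (standard error 0.06, 95% interval -0.18 to 0.06, adjusted p = 0.349 from limma). The interval holds differences of up to 0.18 in size on the log2 scale, and this result does not show that the level was equal. *SPAG7* (distance 0.04) and *LANCL1* (0.06) had the most similar profiles.

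The make-up of the kinase transcripts shifted towards *EIF2AK3*. The summed FPKM of the 4 kinases was 131 ± 2.40 with PBS and 147 ± 4.20 with PP (SD, n = 3). *EIF2AK3* made up 8.42%, 8.21% and 8.32% of the sum in the PBS libraries and 16.0%, 15.6% and 15.5% in the PP libraries. *EIF2AK2* made up 18.4% ± 0.394 and 14.2% ± 0.313, *EIF2AK4* 6.50% ± 0.442 and 5.53% ± 0.102, and *EIF2AK1* 66.7% ± 0.358 and 64.6% ± 0.544 (SD, n = 3). On the FPKM scale the order of *EIF2AK2* and *EIF2AK3* was reversed, with a ratio of *EIF2AK2* to *EIF2AK3* of 2.22 ± 0.0504 with PBS and 0.907 ± 0.0156 with PP. In recovered counts, which are not divided by gene length, *EIF2AK2* stayed above *EIF2AK3* with PP (6136 to 7051 against 3261 to 3621). The fall of the ratio does not depend on the lengths, but the reversal does. The share of each kinase was separate between the groups, also for *EIF2AK4*, whose own level overlapped. Shares depend on the sum, which rose, so a lower share does not mean a lower level. The share of *EIF2AK1* fell although its level was called higher.

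**Figure D2:**
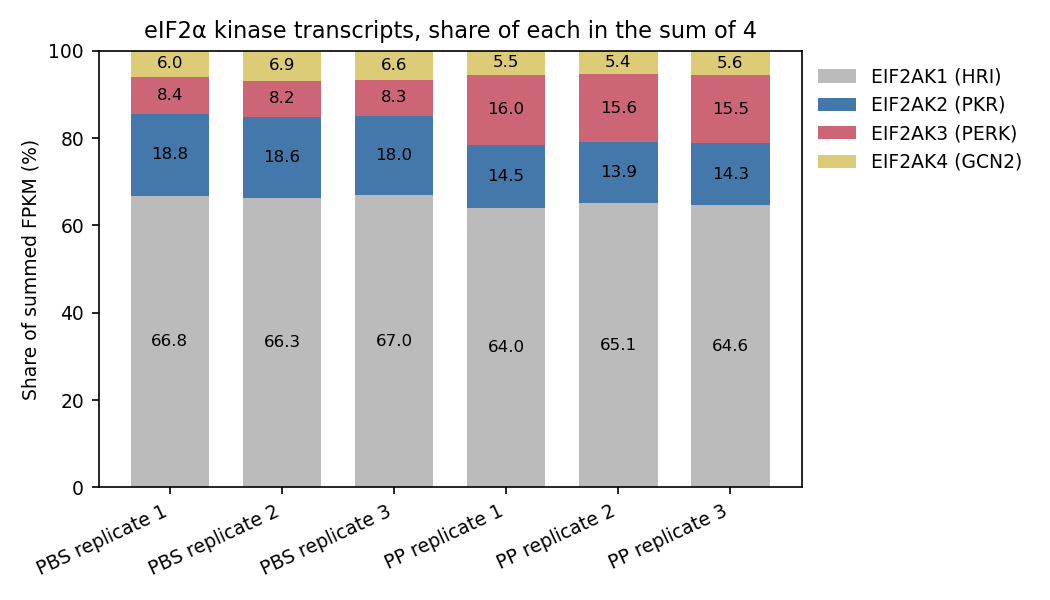
Share of each eIF2α kinase gene in the summed FPKM of the 4 genes (y axis, percent), 1 bar per library with the share written in each segment. The *EIF2AK3* segment grows from 8.2 to 8.4% in the PBS libraries to 15.5 to 16.0% in the PP libraries, and *EIF2AK1* remains the largest segment in all 6 libraries.

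The lists for the substrate and the regulators of the kinases are short, and no list was tested as a group. Their counts stand beside 38.1% of all tested genes called higher and 34.4% called lower. Of 8 subunit genes of eIF2, the substrate, and eIF2B, its exchange factor, 6 were higher, 0 lower and 2 did not pass the test (median log2 fold change 0.25). The eIF2 subunit *EIF2S2* and the eIF2B subunit *EIF2B2* were highest (both 0.60), and *EIF2B1* (0.20) and *EIF2B4* (0.17) the lowest called. Of 4 activators and relays, *OMA1*, a mitochondrial protease, was higher at 0.48 and *PRKRA*, which activates PKR, at 0.33. *DELE1*, the fragment of which carries the mitochondrial signal from OMA1 to HRI, was lower at -0.55, and *GCN1*, the ribosomal partner of GCN2, had a log2 fold change of -0.07 (adjusted p = 0.232 from limma). Of 5 inhibitors, 4 were higher and 1 lower (median 0.49). *IMPACT*, an inhibitor of GCN2, stood at 0.84, *DNAJC3*, which inhibits PERK and PKR, at 0.67, the RNA editing enzyme *ADAR* at 0.13, and *TARBP2*, which binds PKR, at -0.23.

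The eIF2α phosphatase genes differed by subunit. *PPP1R15A*, the stress-induced subunit GADD34 that directs the phosphatase to eIF2α, rose from 35.2 ± 0.540 to 208 ± 4.54 FPKM (SD, n = 3), a log2 fold change of 2.53. Its constitutive counterpart *PPP1R15B* rose by 0.46 on the log2 scale. Of the catalytic subunits, *PPP1CB* was higher at 0.47, and *PPP1CA* at -0.51 and *PPP1CC* at -0.21 were lower. In all, 3 of these 5 genes were higher and 2 lower, beside 38.1% and 34.4% of all tested genes.

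Genes known to act downstream of PERK and the ISR showed the highest median of the 12 lists. Of 13 genes, 12 were higher and 1 lower, 10 were past the stricter cutoff on the higher side, and the median log2 fold change was 1.34. Over all tested genes 38.1% were higher, 34.4% lower and 2.24% past that cutoff on the higher side, and the list was not tested. *TRIB3*, a pseudokinase that restrains ATF4, had a log2 fold change of 3.09 and the transcription factor *ATF3* of 2.73. *CHAC1*, an enzyme that degrades glutathione, had the lowest log2 fold change of the called higher genes at 0.62 on the scale of FPKM + 1, which shrinks the change of a gene at 1.02 FPKM with PBS and 2.10 FPKM with PP. *VLDLR*, a lipoprotein receptor, was lower at -0.41. Outside the rule for naming genes, and chosen after their values were seen, *ATF4*, the transcription factor whose translation eIF2α phosphorylation favours, rose from 36.2 ± 1.82 to 57.2 ± 2.27 FPKM (log2 fold change 0.65), and *DDIT3* (CHOP) from 109 ± 0.343 to 415 ± 19.9 FPKM (1.92; SD, n = 3). The list does not separate the 4 kinases, and these mRNA levels do not say whether any kinase was active.

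*ATF6* and *ATF6B*, which encode related membrane-bound transcription factors, moved in opposite directions. *ATF6* lies on chromosome 1 from 161766320 to 161964070. It had 13.0, 12.3 and 12.0 FPKM in the PBS libraries, and 21.3, 21.5 and 23.7 FPKM in the PP libraries. PP replicate 3 was the highest, and all PP libraries lay above all PBS libraries. The mean rose from 12.4 ± 0.520 to 22.1 ± 1.31 FPKM (SD, n = 3), a log2 fold change of 0.78 (standard error 0.05, 95% interval 0.67 to 0.90, adjusted p = 4.29e-07 from limma) and rank 496. *TATDN1* and *GTPBP10* had the most similar profiles (distance 0.05 for each).

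*ATF6B*, the weaker activator of the pair, had the highest FPKM of the 10 members with PBS and ranked 3 with PP. It lies on chromosome 6 from 32115264 to 32128246. It had 113, 108 and 109 FPKM in the PBS libraries, and 76.0, 85.3 and 82.9 FPKM in the PP libraries. PP replicate 1 was the lowest, and the groups were widely apart. The mean fell from 110.2 ± 2.80 to 81.4 ± 4.79 FPKM (SD, n = 3), a log2 fold change of -0.43 (standard error 0.04, adjusted p = 1.03e-05 from limma). The ratio of *ATF6B* to *ATF6* was 8.70, 8.80 and 9.08 in the PBS libraries and 3.57, 3.98 and 3.50 in the PP libraries, so *ATF6B* remained the more abundant transcript in every library. The sum of *ATF6* and *ATF6B* was 123 ± 3.28 FPKM with PBS and 104 ± 5.35 FPKM with PP. Exons of *ATF6B* overlap those of *TNXB* on the same strand, which had at most 36 counts per PBS library and 84 per PP library, against at least 6132 for *ATF6B*. *MAPKAP1* (distance 0.05) and *CDK2AP1* (0.07) had the most similar profiles.

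Of 12 known targets of ATF6, 9 were higher, 1 was lower and 2 did not pass the test (median log2 fold change 0.36), where 38.1% of all tested genes were called higher and 34.4% lower. No test of the list was made. *HERPUD1* rose from 21.0 ± 0.361 to 74.6 ± 1.40 FPKM, a log2 fold change of 1.78, and *HSPA5*, the BiP chaperone that holds all 3 sensors inactive, stood next at 1.68. The protein disulfide isomerase *PDIA4* was the lowest of the called higher genes at 0.14, and *CALR* was lower at -0.37. The major chaperones therefore did not move together. Among 8 genes for trafficking, redox control and partners of ATF6, 5 were higher, 1 lower and 2 did not pass the test (median 0.30). *PDIA5*, which reduces ATF6 disulfides, was higher at 0.48, the general transcription factor *TBP* at 0.41 and *YY1*, a cofactor of ATF6, at 0.21. The NF-Y subunits differed among themselves: *NFYA* was lower at -0.38, while *NFYC* was higher at 0.41 and *NFYB* had a log2 fold change of 0.10 (adjusted p = 0.0654 from limma), the last 2 being named after their values were seen.

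The protease genes also moved in opposite directions. *MBTPS1*, which encodes the site 1 protease, lies on chromosome 16 from 84053763 to 84116942. It had 29.3, 28.4 and 27.8 FPKM in the PBS libraries, and 23.6, 23.1 and 23.1 FPKM in the PP libraries. All PP libraries lay below all PBS libraries. The mean fell from 28.5 ± 0.772 to 23.3 ± 0.287 FPKM (SD, n = 3), a log2 fold change of -0.28 (standard error 0.04, adjusted p = 8.40e-05 from limma). *ACTR2* and *BUB3* had the most similar profiles (distance 0.04 for each).

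*MBTPS2*, which encodes the site 2 protease and makes the second cut, lies on chromosome X from 21839617 to 21885423. It had 5.71, 5.73 and 6.14 FPKM in the PBS libraries, and 8.19, 7.79 and 8.36 FPKM in the PP libraries. The lowest PP library was above the highest PBS library. The mean rose from 5.86 ± 0.243 to 8.11 ± 0.290 FPKM (SD, n = 3), a log2 fold change of 0.41 (standard error 0.05, adjusted p = 5.44e-05 from limma). With 747 to 853 counts per PBS library, *MBTPS2* had the fewest counts of the 10 members. Its exons overlap those of *YY2* on the same strand, which had 2.0 ± 0.129 FPKM with PBS and 1.82 ± 0.111 FPKM with PP (adjusted p = 0.272 from limma). The ratio of *MBTPS1* to *MBTPS2* fell from 4.87 ± 0.313 to 2.87 ± 0.0993 (SD, n = 3). *CLSTN2* and *LYSMD4* had the most similar profiles (distance 0.04 and 0.05).

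Substrates and cofactors of these proteases showed no common direction. Of 12 genes, 10 were tested, 2 were higher, 4 were lower and 4 did not pass the test (median log2 fold change -0.02). These counts stand beside 38.1% of all tested genes called higher and 34.4% called lower. *CREB3L2*, a membrane-bound transcription factor cut by both proteases, rose from 3.06 ± 0.338 to 9.35 ± 0.349 FPKM, a log2 fold change of 1.35, and its relative *CREB3* was higher at 0.30. *INSIG1*, which holds the SREBP escort in the endoplasmic reticulum and is itself an SREBP target, fell from 12.4 ± 1.30 to 4.93 ± 0.0874 FPKM, a log2 fold change of -1.17. *GNPTAB*, cut by the site 1 protease for lysosomal enzyme sorting, was lower at -0.39 and *SPRING1*, a cofactor of that protease, at -0.32. The SREBP escort *SCAP* had a log2 fold change of 0.01 (adjusted p = 0.869 from limma).

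**Figure D3:**
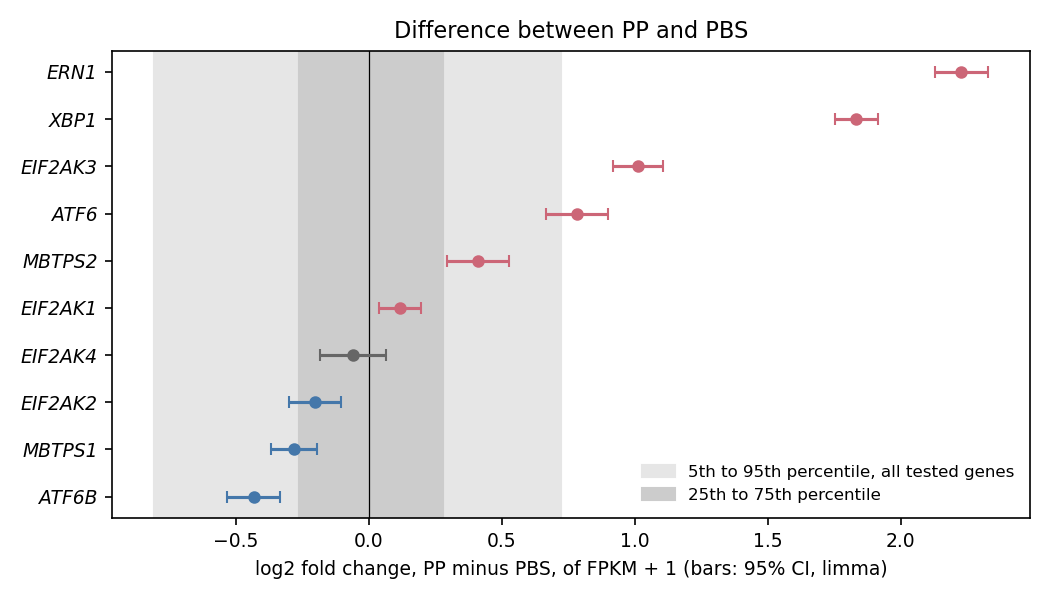
Log2 fold change (x axis, PP minus PBS, of FPKM + 1) of the 10 genes with 95% intervals from limma, red for higher, blue for lower and grey for not called. The grey bands span the 5th to 95th and the 25th to 75th percentile of all genes tested, and *ERN1*, *XBP1*, *EIF2AK3* and *ATF6* lie outside the wider band at 2.23, 1.83, 1.01 and 0.78.

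Set against all genes tested, the members fell into groups by size. The middle 90% of tested genes had log2 fold changes from -0.81 to 0.72, and *ERN1*, *XBP1*, *EIF2AK3* and *ATF6* lay above this range. *MBTPS2* (0.41) and *ATF6B* (-0.43) lay inside it and beyond the middle 50%, which ran from -0.26 to 0.28, with *MBTPS1* just beyond at -0.28. *EIF2AK1*, *EIF2AK2* and *EIF2AK4* lay within the middle 50%, so *EIF2AK1* and *EIF2AK2*, although called, differed by less than many other genes did.

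The order of the levels on the FPKM scale changed. With PBS it ran from *ATF6B* (110.2 FPKM) through *EIF2AK1* (87.5), *XBP1* (42.2), *MBTPS1* (28.5), *EIF2AK2* (24.2), *ATF6* (12.4), *EIF2AK3* (10.9), *EIF2AK4* (8.51) and *MBTPS2* (5.86) to *ERN1* (5.15), and no neighbours in this order had overlapping libraries. With PP it ran from *XBP1* (153 FPKM) through *EIF2AK1* (94.9), *ATF6B* (81.4) and *ERN1* (27.8), which were separate from one another, to *MBTPS1* (23.3), *EIF2AK3* (23.0), *ATF6* (22.1) and *EIF2AK2* (20.9). The libraries of neighbours among these last 4 overlapped, as did those of *EIF2AK4* (8.12) and *MBTPS2* (8.11) at the lower end. The ratio of *ERN1* to *EIF2AK3* rose from 0.472 ± 0.0165 to 1.21 ± 0.0571 (SD, n = 3), so the IRE1 transcript passed that of PERK on the FPKM scale. In recovered counts, which are not divided by gene length, *ERN1* was already above *EIF2AK3* in PBS replicates 1, 2 and 3 (1728, 1625 and 1782 against 1646, 1486 and 1583). The ratio of *ATF6* to *EIF2AK3* moved less, from 1.14 ± 0.0184 to 0.962 ± 0.0427.

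**Figure D4:**
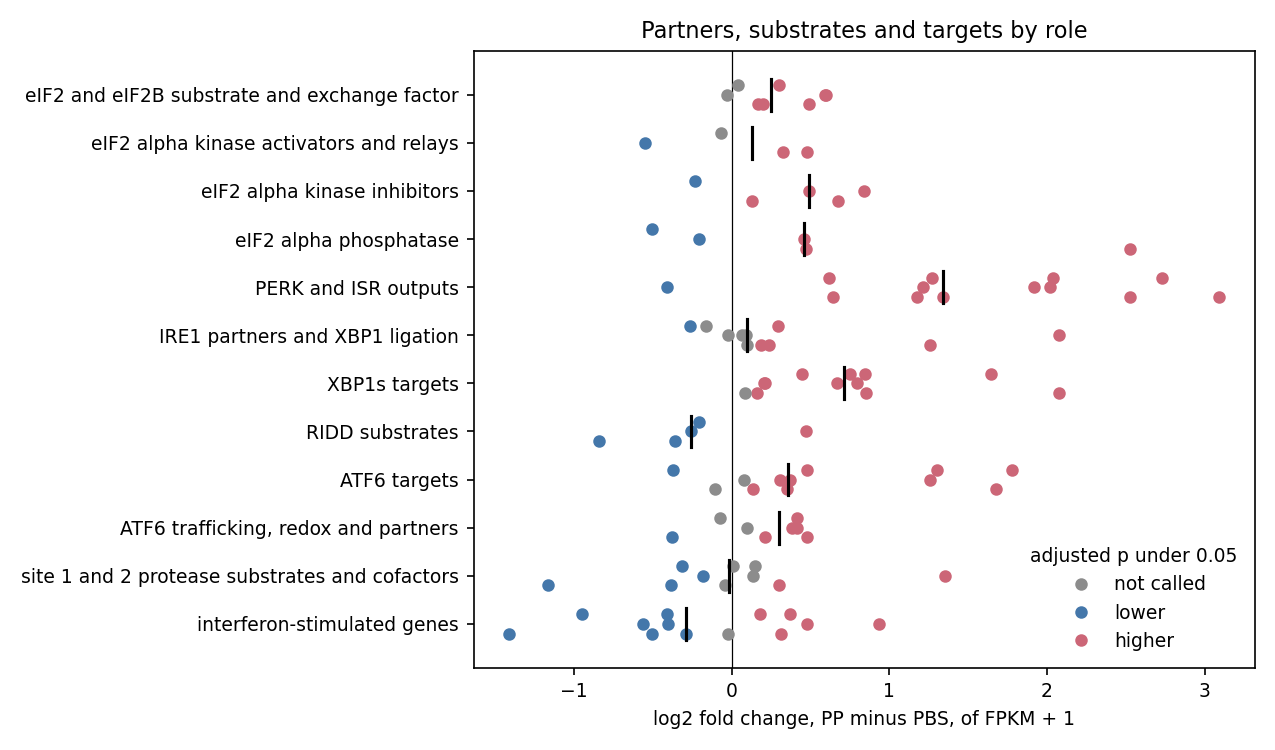
Log2 fold change (x axis, PP minus PBS, of FPKM + 1) of every tested gene in the 12 lists of partners, substrates and targets, with red, blue and grey points for higher, lower and not called, and a black line at the median of each list. PERK and ISR outputs (median 1.34) and XBP1s targets (0.71) lie farthest to the right, and interferon-stimulated genes (-0.29) and RIDD (regulated IRE1-dependent decay) substrates (-0.26) lie to the left.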

How the data were processed

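The authors deposited FPKM of 17177 gene symbols for 3 libraries of NCI-H660 cells treated with PP and 3 treated with PBS, from TRIzol RNA and a stranded mRNA kit. The labels' processing notes name fastp, HISAT2, HTSeq and GRCh38, whereas the methods name Bowtie, hg19, RSEM, Cufflinks and HTSeq and speak of duplicates. The table holds no coordinates, and those given here are of RefSeq genes on GRCh38.p14. FPKM depends on gene length and library total, so a gene can shift when abundant genes change.

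Counts were recovered from the FPKM steps with a tolerance of 0.01, for 100% of the 11726 tested genes, and summed to 29064154 to 32481049 per library. Differences on log2(FPKM + 1), a scale that understates the change of low genes, were tested with limma 3.58.1 (R 4.3.3; lmFit, and eBayes with a trend, two-sided), without a replicate block. Groups came from the sample labels. The steps were tested on simulated data. Python 3.11.15, numpy 2.4.6, pandas 2.3.3 and matplotlib 3.10.9 were used for the rest.

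The members and lists were chosen with earlier results of these data known, and the lists were written from general knowledge. From each list the 2 highest and 2 lowest called genes, and the regulators that act directly on a member, could be named. Genes named for ERSE letters were picked after their values were seen. The alternatives varied the pseudocount (0.1 and 0.5), the filter (none, or a mean of at least 5), the scaling, the eBayes trend, limma-voom on recovered counts, the replicate block and the libraries included. Reads, splicing and proteins were not analysed here. No PP dose for this experiment is given in the sources used here. Results for some genes of the marker and similarity lists are not reported here.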

Additional observations from a re-analysis of the deposited data

How the results depend on the processing

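All 10 members kept their direction under each of 15 alternatives, and 3 members were called lower in every one. The call of *EIF2AK1* was lost without PBS replicate 2 and without PBS replicate 3, and its log2 fold change ran from 0.094 to 0.14 with each library left out. *EIF2AK4* was called under no alternative (adjusted p from limma 0.167 to 0.829). The log2 fold changes ran from 2.20 to 2.43 for *ERN1*, 1.81 to 1.90 for *XBP1*, 0.99 to 1.11 for *EIF2AK3* and 0.74 to 0.86 for *ATF6*. Over all genes, 531 were past the stricter cutoff on the lower side with a pseudocount of 0.1, against 344, and limma-voom put 397 on the higher and 559 on the lower side, against 263 and 344. Same-numbered libraries did not deviate together (correlations -0.21, -0.01 and -0.13). With the replicate block 6 members were higher and 3 lower, as without it, *EIF2AK1* had an adjusted p of 0.0469 from limma, and 4260 genes were higher and 3878 lower. Scaling each library to the same FPKM sum (TPM) moved the median of all genes by 0.051 on the log2 scale, and median-ratio size factors by -0.020. Such shifts matter for the small differences. The log2 fold change of *EIF2AK1* was 0.092 with median-ratio size factors (adjusted p = 0.0437 from limma) and 0.17 with TPM (adjusted p = 0.0022). Every member had at least 747 counts in each library, and genes with a mean below 1 FPKM, where depth limits the precision most, were not tested.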
